A study of Mus musculus with 4 samples.

Results

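The genes described here are 37 lysosomal genes of the mouse, listed by name for what their products do, out of 32285 genes in the matrix. The list was drawn up with earlier results of these data known. They comprise 6 membrane proteins, 22 hydrolases with their helper proteins, and 9 subunits of the proton pump. All 37 were found in the matrix, and each was followed across the cell types and tumours.

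The transcriptomes of single CD45+ cells were read from YUMM1.7 mouse melanomas that express ovalbumin (OVA) as a model antigen and grew in Rag2-/- hosts, in which no T or B cells mature. Activated OT-1 T cells, which recognise an OVA peptide, were transferred on day 7 and the cells were isolated on day 10, 72 h later, in all 4 groups. There was 1 sample per group. NTT tumours came from the line Y1.7_NTT_3A6, naive to targeted therapy, and RTT tumours from the line Y1.7_RTT_2B12, made resistant to it and, per the study's methods, cultured in dabrafenib. RTT_ROSA26 is a resistant line edited with a control guide against the Rosa26 locus, and RTT_PTGS12KO a resistant line in which Ptgs1 and Ptgs2 were disrupted, an edit of the injected cancer cells that the sorted cells do not carry. The labels give 1 tumour for each condition, whereas legends of the study describe pooled tumours, a difference that could not be resolved here.

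Lysosomes are acidic compartments in which macrophages break down proteins, lipids and glycans taken up from dying cells and matrix. Hydrolases do the digestion, membrane proteins shield the limiting membrane and pass ions and lipids across it, and a proton pump, the vacuolar ATPase, keeps the lumen acidic. Osteoclasts, the bone-resorbing relatives of macrophages, also place this pump in their outer membrane. Many lysosomal genes carry a palindromic E-box in the promoter that is bound by TFEB, TFE3 and MITF.

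The promoters are shown first because the 37 genes were listed for a shared organelle, and the E-box is a sequence feature that the list did not use. Windows from 250 bases before to 50 bases after a transcription start were read from RefSeq, build GRCm38.p6, for 32 of the 37 genes. Ctsh, Galns, Asah1, Atp6v1b2 and Atp6v1h had none. The letters CACGTG stood in at least 1 window of 12 of the 32 genes (37.5%), against 2187 of 27025 genes in the whole table (8.09%). The longer form TCACGTGA, which contains the first, stood in 6 of them (18.8%), against 304 genes in the table (1.12%). Both forms read the same on both strands. Among the groups, CACGTG was found in 2 of 6 membrane proteins, 7 of 19 hydrolases and 3 of 7 pump subunits, and in 9 of 41 other lysosome genes with a window (22.0%). A match is a description of letters and not of binding. The windows below are printed 5′ to 3′ in the direction of the gene, with the E-box letters in capitals, for genes whose levels are described further on.
Lamp1, chr8:13158911-13159210, plus strand: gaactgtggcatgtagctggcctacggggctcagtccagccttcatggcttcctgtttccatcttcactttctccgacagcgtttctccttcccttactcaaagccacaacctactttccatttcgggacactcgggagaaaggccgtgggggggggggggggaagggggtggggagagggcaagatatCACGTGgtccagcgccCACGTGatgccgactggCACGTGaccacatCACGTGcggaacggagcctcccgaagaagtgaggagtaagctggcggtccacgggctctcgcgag
Ctsd, chr7:142387778-142388077, minus strand: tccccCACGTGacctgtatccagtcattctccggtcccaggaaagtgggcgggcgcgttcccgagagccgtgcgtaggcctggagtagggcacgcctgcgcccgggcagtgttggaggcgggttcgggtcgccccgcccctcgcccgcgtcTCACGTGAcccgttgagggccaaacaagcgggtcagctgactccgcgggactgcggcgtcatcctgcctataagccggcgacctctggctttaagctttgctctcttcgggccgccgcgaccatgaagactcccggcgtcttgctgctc
Ctsa, second RefSeq start, chr2:164833523-164833822, plus strand: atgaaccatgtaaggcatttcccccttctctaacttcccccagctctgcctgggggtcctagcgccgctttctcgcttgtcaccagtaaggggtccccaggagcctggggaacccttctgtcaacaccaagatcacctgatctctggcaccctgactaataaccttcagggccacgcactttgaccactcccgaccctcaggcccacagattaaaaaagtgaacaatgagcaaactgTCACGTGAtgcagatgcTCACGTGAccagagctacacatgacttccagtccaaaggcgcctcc
Glb1, chr9:114400828-114401127, plus strand: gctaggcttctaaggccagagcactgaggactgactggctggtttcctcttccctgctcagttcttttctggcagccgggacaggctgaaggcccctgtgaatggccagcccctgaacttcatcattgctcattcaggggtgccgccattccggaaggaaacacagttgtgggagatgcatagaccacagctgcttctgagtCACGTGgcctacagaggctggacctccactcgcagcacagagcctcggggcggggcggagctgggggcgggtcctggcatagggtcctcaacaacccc
Atp6v0b, chr4:117887280-117887579, minus strand: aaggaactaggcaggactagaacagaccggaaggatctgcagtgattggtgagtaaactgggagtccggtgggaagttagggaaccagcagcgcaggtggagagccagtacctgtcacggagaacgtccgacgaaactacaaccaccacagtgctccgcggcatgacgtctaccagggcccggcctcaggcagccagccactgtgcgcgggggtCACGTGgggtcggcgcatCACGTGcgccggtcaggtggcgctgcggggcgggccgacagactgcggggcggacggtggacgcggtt
Atp6v1a, chr16:44139210-44139509, minus strand: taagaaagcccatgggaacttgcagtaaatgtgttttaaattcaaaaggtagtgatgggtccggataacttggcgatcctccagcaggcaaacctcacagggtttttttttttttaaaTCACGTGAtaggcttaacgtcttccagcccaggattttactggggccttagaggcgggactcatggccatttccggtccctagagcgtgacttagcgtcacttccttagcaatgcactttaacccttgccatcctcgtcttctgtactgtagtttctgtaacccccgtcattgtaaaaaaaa
Cd63, chr10:128909095-128909394, plus strand: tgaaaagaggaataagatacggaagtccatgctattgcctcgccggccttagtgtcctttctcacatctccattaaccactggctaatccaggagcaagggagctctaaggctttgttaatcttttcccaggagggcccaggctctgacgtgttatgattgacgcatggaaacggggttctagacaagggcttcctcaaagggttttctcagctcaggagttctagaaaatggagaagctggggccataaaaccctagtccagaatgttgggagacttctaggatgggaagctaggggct
Arsb, chr13:93771429-93771728, plus strand: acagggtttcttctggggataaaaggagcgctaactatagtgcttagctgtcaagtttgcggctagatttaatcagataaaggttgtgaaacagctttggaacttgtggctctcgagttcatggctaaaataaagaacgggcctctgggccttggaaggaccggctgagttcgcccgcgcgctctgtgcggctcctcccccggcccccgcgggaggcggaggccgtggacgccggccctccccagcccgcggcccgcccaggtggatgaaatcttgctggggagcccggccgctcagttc

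Lamp1, a glycoprotein that lines the lysosomal membrane, held 4 copies of CACGTG, the nearest of them 15 bases before the start. Ctsd, an aspartic protease, held 2 and Glb1, the beta-galactosidase, held 1. Atp6v0b, a subunit of the membrane sector of the pump, held 2 copies, and Atp6v1a, the catalytic subunit, held 1 in the longer form. Ctsa, a carboxypeptidase that also stabilises Glb1 and Neu1, held 2 copies of the longer form at its second start. Neither set of letters occurred in the windows of Cd63, Arsb or Tcirg1, which says nothing about the rest of these loci.

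The samples held 6836 to 10296 cells and 69332486 to 146829369 unique molecular identifiers (UMIs), with a median per cell of 7292 in NTT and 12219 to 13280 in the resistant tumours. Levels are given as CPM, the UMIs of a gene per 1e+06 UMIs of the sum over all cells of one type in one tumour. All 4 samples were loaded together in 3 droplet loads, so the range over loads is technical spread only. Across samples, 75 cell barcodes recurred but 0 within the same load. With 1 sample per group there is no replicate check and no test was made. Intervals in brackets are 95% exact Poisson intervals for sums and cover counting error only. Cell types are the study's clusters of these same cells, and several of the 37 genes are among the markers by which the study described them: Lgmn, Cd63 and Ctsd for TAM_C1q, Ctsz, Grn and Psap for TAM_H2Ab1, and Cd63, Hexa, Atp6v0b, Atp6v1b2 and Atp6v1a for Ctsk_Macro. Differences between types are therefore a description. They cannot separate fewer positive cells from less RNA per cell except where shares of cells are given.

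The 37 genes took their largest share of UMIs in TAM_C1q in RTT and RTT_ROSA26, in Ctsk_Macro in RTT_PTGS12KO and in TAM_H2Ab1 in NTT, where both of the former held too few cells to be summed. In TAM_C1q, named for complement C1q genes, they made up 1.875% of all UMIs in RTT, 1.78% in RTT_ROSA26 and 1.48% in RTT_PTGS12KO. Ctsk_Macro, named for the collagen-cutting protease cathepsin K, gave 1.84%, 1.59% and 1.68% in the same order. These types overlapped in this total, as they did in the share of the membrane proteins (0.358%, 0.295% and 0.310% in Ctsk_Macro, 0.431%, 0.394% and 0.302% in TAM_C1q), but not in those of the hydrolases and the pump. The small type Macro gave 1.59%, 1.60% and 1.20%, in RTT_ROSA26 just above Ctsk_Macro and in RTT_PTGS12KO well below it. TAM_H2Ab1, named for an MHC class II gene, gave 1.46% of UMIs (NTT), 1.65% (RTT) and 1.41% (RTT_PTGS12KO), which overlaps with the types above but lies over every monocyte and neutrophil value. TAM_cycling ranged from 1.06% in NTT to 1.49% in RTT_ROSA26. TAM_Spp1, named for osteopontin, lay lower, at 1.08%, 1.03% and 0.993% in the resistant tumours, and overlapped with the largest monocyte type, Monocyte_1, at 1.07% (NTT), 1.10% (RTT), 0.964% (RTT_ROSA26) and 1.03% (RTT_PTGS12KO). Infl_Mono, the inflammatory monocytes, stood at 1.31% in RTT and at 0.962% to 1.04% in the other tumours. Cell by cell, however, the median share was 0.999% in RTT and 0.889% to 0.997% in the other tumours. Neutro had 0.902% (NTT), 1.10% (RTT), 1.27% (RTT_ROSA26) and 0.937% (RTT_PTGS12KO), so its summed values fell on both sides of TAM_Spp1 and Monocyte_1. Its median shares per cell were 0.853%, 0.752%, 0.917% and 0.789% in the same order. These lay below every such median of TAM_Spp1 (lowest 0.946%) and Monocyte_1 (lowest 0.927%). The lowest totals were 0.284% and 0.269% in NK cells of NTT and RTT_PTGS12KO and 0.192% in CD8 T cells of NTT.

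Hydrolases and the pump did not follow the same order of types. The 22 hydrolases took 1.09%, 1.05% and 0.877% of UMIs in TAM_C1q of RTT, RTT_ROSA26 and RTT_PTGS12KO, and 0.830%, 0.636% and 0.734% in Ctsk_Macro. The 9 pump subunits took 0.353%, 0.337% and 0.301% in TAM_C1q, and 0.651%, 0.663% and 0.633% in Ctsk_Macro. In every resistant tumour the pump was therefore highest in Ctsk_Macro and the hydrolases, in sum, were higher in TAM_C1q than in Ctsk_Macro. A few abundant hydrolase genes carried much of that sum. Without Psap, Ctsd, Grn and Ctsz, which are among the study's markers of TAM_C1q or TAM_H2Ab1, a choice made after the data had been seen, the share was 0.578%, 0.534% and 0.457% in TAM_C1q and 0.502%, 0.391% and 0.433% in Ctsk_Macro, so that the ranges overlapped and the types were nearly level in RTT_PTGS12KO. Across the monocyte and the other macrophage types the pump ranged from 0.236% in TAM_cycling of NTT to 0.353% in TAM_C1q of RTT, below every Ctsk_Macro value. Cell by cell, the median share of UMIs in pump genes was 0.588%, 0.620% and 0.609% in Ctsk_Macro and 0.345%, 0.328% and 0.292% in TAM_C1q, in the same order of tumours.

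**Figure D1:**
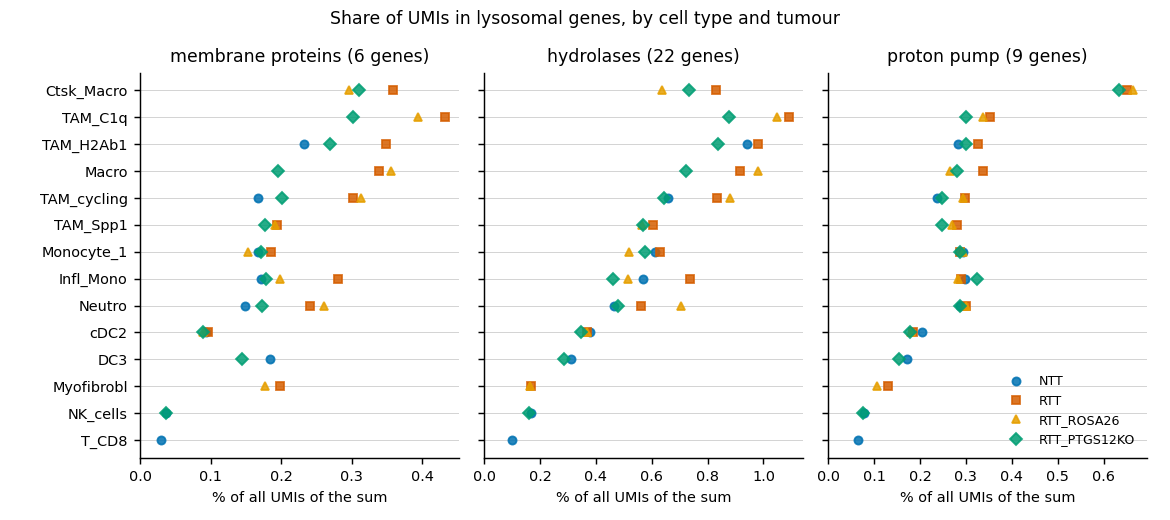
Share of all UMIs of a sum (%, x axis from 0) taken by 6 membrane proteins, 22 hydrolases and 9 pump subunits, 1 point per cell type and tumour with at least 50 cells. The pump reaches 0.633% to 0.663% in Ctsk_Macro and at most 0.353% in any other type, whereas hydrolases reach their highest value, 1.09%, in TAM_C1q of RTT.

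Gene by gene, with each type's level averaged over its tumours, 20 of the 37 genes were highest in Ctsk_Macro, 9 in Macro, 4 in TAM_H2Ab1, 3 in TAM_C1q and 1, Gla, in Neutro. Among the 35 of them with a mean over types of at least 10 CPM, 18 were highest in Ctsk_Macro, where 10.6% of 7198 such genes had their highest level. The corresponding shares were 11.4% for Macro, 3.06% for TAM_H2Ab1, 4.20% for TAM_C1q and 6.0% (432 genes) for Neutro, beside 9, 4, 3 and 1 of the 35. The pump gave 7 of its 9 subunits to Ctsk_Macro, the hydrolases 10 of 22 and the membrane proteins 3 of 6. In 23 of the 37 the lowest type was T_CD8 (22 of the 35 at 10 CPM, against 15.8% of all such genes), and no UMI of Atp6v0a1, a pump subunit, was counted in these 93 T cells, which allows up to 2.36 CPM. The Neutro sums, where Gla was highest, also carried 5187 to 22398 CPM of macrophage markers. Only some of the first places were clear of the next type in every tumour. Lamp1 ranged from 678 to 1368 CPM in Macro and from 863 to 1245 CPM in TAM_C1q, so these neighbours overlapped. Hexa, a subunit of beta-hexosaminidase, ranged from 856 to 1024 CPM in Ctsk_Macro and from 357 to 476 CPM in TAM_C1q and did not overlap. Lgmn, an asparaginyl endopeptidase, reached 1807 to 2251 CPM in TAM_C1q and 1337 to 1539 CPM in TAM_H2Ab1, and again the ranges were apart. Scarb2, which carries beta-glucocerebrosidase to lysosomes, was lowest in Ctsk_Macro at a mean of 25.9 CPM and highest in Macro at 132 CPM.

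**Figure D2:**
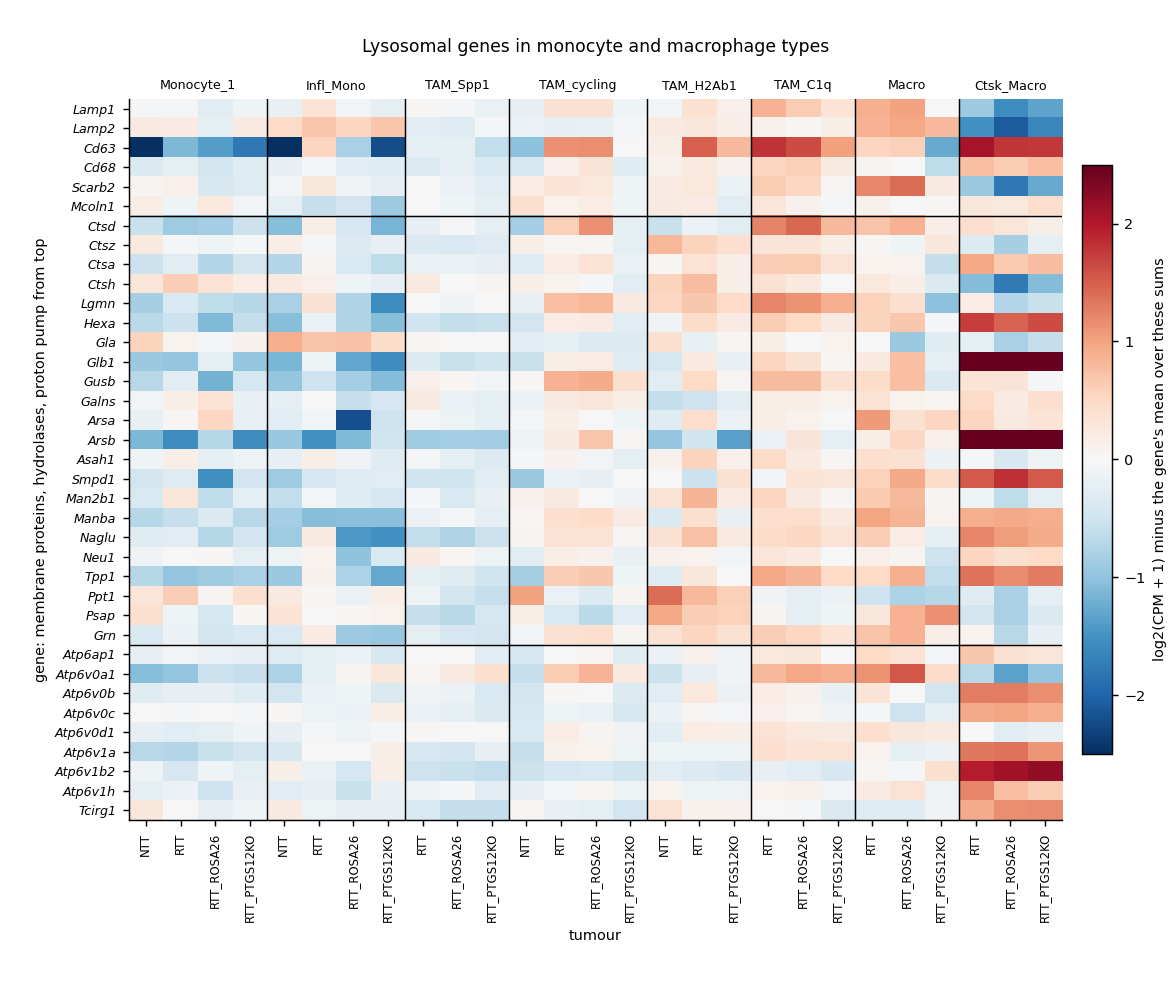
Each gene's log2(CPM + 1) in 8 monocyte and macrophage types and their tumours (columns), relative to that gene's mean over the columns shown, with colours at the ends of the scale taking all values beyond them. Ctsk_Macro is red for most pump subunits and for Arsb and Glb1, and blue for Lamp1, Lamp2, Scarb2 and Ctsh.

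Ctsk_Macro was compared with TAM_C1q inside each of the resistant tumours. A gene is counted as higher or lower where its CPM differed by more than 1.5-fold in all 3 tumours. Of the 37 genes, 10 were higher and 7 lower, whereas 11.6% of 7022 genes with at least 10 CPM were higher and 11.6% were lower. The pump subunits had a median log2 ratio of 0.88 (6 of 9 higher, 1 lower), the hydrolases of -0.03 (4 of 22 higher, 3 lower) and the membrane proteins of -0.76 (0 of 6 higher, 3 lower), beside -0.01 for all genes. Arsb, among the higher hydrolases, met the limit of 10 CPM through its level in Ctsk_Macro, since it lay below 10 CPM in TAM_C1q of RTT and RTT_PTGS12KO. Neither direction of the hydrolases exceeded the background by much, whereas the pump stood away from it upwards and the membrane proteins downwards. Of 8 further pump genes taken from a second list, all 8 were higher.

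Atp6v1b2, a subunit of the cytosolic sector of the pump that is abundant in osteoclasts, reached 597, 654 and 709 CPM in Ctsk_Macro of RTT, RTT_ROSA26 and RTT_PTGS12KO, and 132, 125 and 115 CPM in TAM_C1q, a mean log2 ratio of 2.39. A UMI of Atp6v1b2 was found in 98.5% to 98.9% of Ctsk_Macro cells, against 72.7% to 75.2% of TAM_C1q cells and 29.5% to 46.4% of NK cells. With every cell thinned to 3000 UMIs these shares were 75.0% to 79.4%, 27.8% to 31.0% and 11.4% to 11.9%, so the order held at equal depth.

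The proton pump has one a subunit per complex, and its isoforms went in opposite directions. Tcirg1, the isoform needed by osteoclasts, reached 217, 258 and 261 CPM in Ctsk_Macro and 114, 111 and 89.2 CPM in TAM_C1q of RTT, RTT_ROSA26 and RTT_PTGS12KO, a mean log2 ratio of 1.23. Atp6v0a1, an isoform found in many cells, stood at 13, 7.92 and 10.3 CPM in Ctsk_Macro against 38.2, 43.2 and 41.0 CPM in TAM_C1q, a mean log2 ratio of -1.89. The groups did not overlap for either gene. Atp6v0b and Atp6v0c, which build the proton-carrying ring, had ratios of 1.2 and 0.92, and Atp6v1a and Atp6v1h ratios of 0.88 and 0.83. Atp6v0d1, another membrane-sector subunit, lay at -0.43 and the accessory protein Atp6ap1 at 0.26, neither past 1.5-fold in all 3 tumours. Atp6v0d2, the osteoclast counterpart of Atp6v0d1 and a marker of the osteoclast list, had a ratio of 5.28.

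Among hydrolases, Arsb, a sulfatase that acts on dermatan and chondroitin sulfate, showed the widest gap. It reached 180 CPM (169 to 191), 236 CPM (225 to 246) and 156 CPM (144 to 169) in Ctsk_Macro of RTT, RTT_ROSA26 and RTT_PTGS12KO, and 7.59, 10.9 and 7.08 CPM in TAM_C1q, a mean log2 ratio of 4.33. Arsb was not restricted to Ctsk_Macro, since NK cells stood at 152 CPM in NTT and 149 CPM in RTT_PTGS12KO. A UMI of Arsb was found in 71.7%, 76.3% and 69.7% of Ctsk_Macro cells, in 66.7% and 79.1% of NK cells of NTT and RTT_PTGS12KO, in 10.1%, 14.4% and 10.0% of TAM_C1q cells, and in 1.82% to 3.70% of Monocyte_1 cells. The monocytes share loads with the other cells, but free RNA was not measured and its part in these shares was not tested. Thinned to 3000 UMIs, the shares were 31.4% to 40.2% in Ctsk_Macro, 35.8% to 36.8% in NK cells and 2.10% to 2.95% in TAM_C1q. Arsb lies on chromosome 13 from 93771630 to 93943016 of GRCm38 on the plus strand, where a microRNA gene shares its strand.

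Glb1 stood at 181, 185 and 218 CPM in Ctsk_Macro against 45.7, 40.9 and 32.2 CPM in TAM_C1q of RTT, RTT_ROSA26 and RTT_PTGS12KO, a mean log2 ratio of 2.28. Glb1 (chromosome 9, 114401076 to 114474898) overlaps the gene Tmppe on the same strand, so its UMIs are uncertain where both could take a read. Hexa had a ratio of 1.17, and Smpd1, the acid sphingomyelinase, one of 1.44. Lower were Ctsh, an aminopeptidase of the cathepsin family (253, 158 and 253 against 704, 638 and 535 CPM, ratio -1.52), Lgmn (1094, 581 and 656 against 2251, 2092 and 1807 CPM, ratio -1.45) and Ctsd (1001, 909 and 813 against 1752, 2008 and 1290 CPM, ratio -0.87). Ctsd (chromosome 7, 142375911 to 142388038) overlaps Gm49369, a predicted coding gene, on the same strand.

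The membrane proteins split. Lamp1 stood at 362, 229 and 276 CPM in Ctsk_Macro against 1245, 1067 and 863 CPM in TAM_C1q, a mean log2 ratio of -1.88, and no Ctsk_Macro value reached the lowest TAM_C1q value. Lamp2, its close relative, went the same way (123, 83.0 and 114 against 380, 368 and 395 CPM, ratio -1.85), as did Scarb2 (33.5, 17.8 and 26.4 against 100.1, 91.9 and 65.6 CPM, ratio -1.71). Cd63, a tetraspanin of late endosomes and lysosomes, stood at 2108, 1744 and 1723 CPM in Ctsk_Macro and 1765, 1561 and 1030 CPM in TAM_C1q, a mean log2 ratio of 0.39, with overlapping ranges. Cd68, a macrophage-rich relative of the Lamp proteins, had a ratio of 0.27 and the calcium channel gene Mcoln1 one of 0.19.

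**Figure D3:**
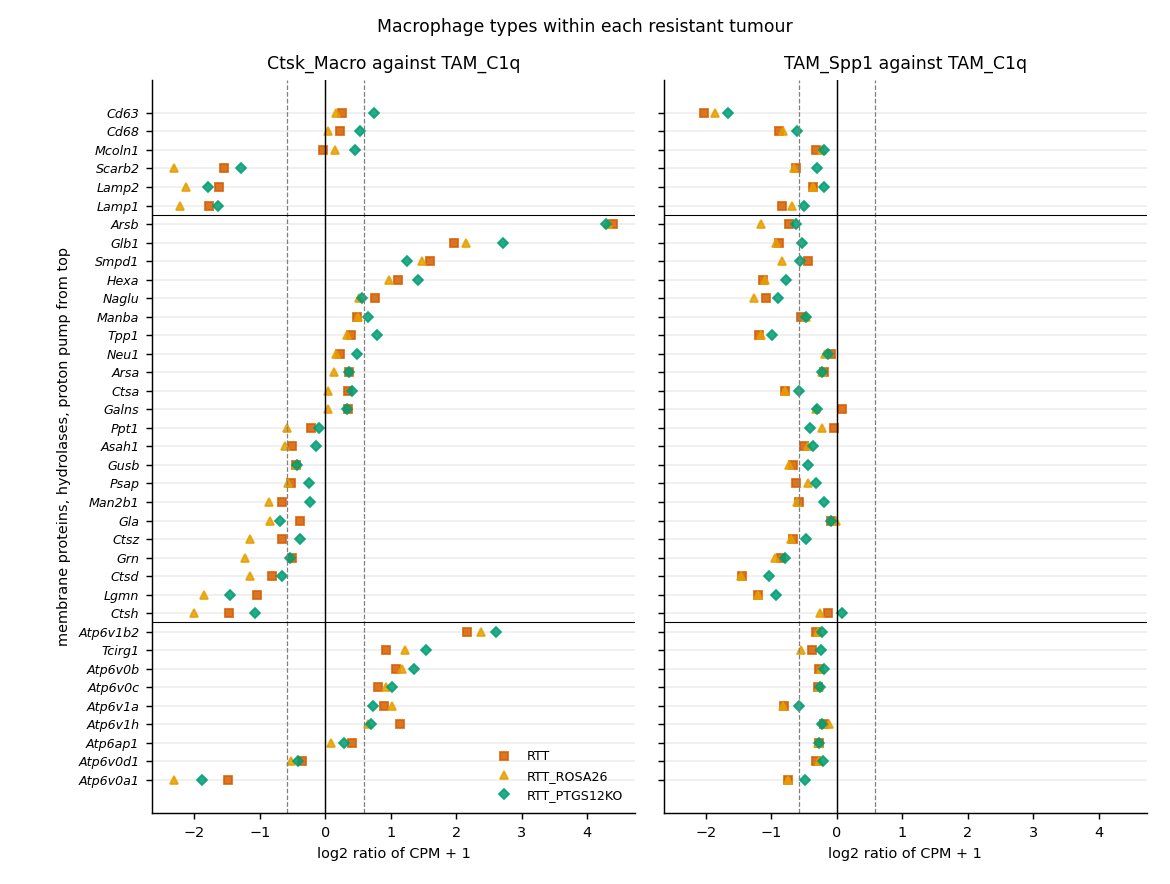
Log2 ratio of CPM + 1 for Ctsk_Macro (left) and TAM_Spp1 (right) against TAM_C1q in each resistant tumour (points), with 37 genes in rows and dashed lines at 1.5-fold. On the left the groups pull apart, with Arsb, Atp6v1b2 and Glb1 to the right and Lamp1, Lamp2, Scarb2 and Atp6v0a1 to the left of 0, and on the right nearly all points lie below 0.

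The cells of Ctsk_Macro carried 30218 to 31971 CPM of 8 osteoclast-type markers in sum, all 8 at 10 CPM or more, against 168 to 396 CPM in TAM_C1q. Their 10 macrophage markers (C1q genes, Apoe, Mrc1 and others) summed to 24017 CPM in RTT, 8096 in RTT_ROSA26 and 9147 in RTT_PTGS12KO, and to 51898, 41177 and 25969 CPM in TAM_C1q. Among lysosome genes outside the 37, Ctsk (mean log2 ratio 8.79) and Acp5, an osteoclast acid phosphatase (5.64), were highest and Lyz2, lysozyme (-2.68), and Ctsc, a dipeptidyl peptidase (-2.62), lowest. Of 24 other hydrolases 3 were higher and 8 lower, of 11 other membrane proteins 2 were higher, and of 5 sorting genes 2 were higher. The type is named for Ctsk, so that ratio is part of its name.

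Among transcription factors of lysosomal genes, Mitf, which also serves osteoclasts, was the 1 of 3 measured above 10 CPM to be higher in Ctsk_Macro. Mitf stood at 39.2, 51.6 and 36.7 CPM against 15, 17.8 and 19.5 CPM in TAM_C1q of RTT, RTT_ROSA26 and RTT_PTGS12KO, a mean log2 ratio of 1.23. Tfe3 lay at -0.35 and Tfec at 0.32. Tfeb was too low to be counted, with 7.50, 9.67 and 11.1 CPM against 7.47, 8.81 and 8.43 CPM.

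Against TAM_C1q, the genes of TAM_Spp1 past 1.5-fold were all lower. Of 35 genes with at least 10 CPM, 0 were higher and 8 lower (background 2.53% and 5.11%), and all 35 had a mean log2 ratio below 0 (68.2% of all genes), with a median of -0.46 beside -0.12 for all genes. The membrane proteins had a median of -0.60, the hydrolases of -0.56 and the pump of -0.28. Cd63 stood furthest, at 433, 427 and 326 CPM in TAM_Spp1 of RTT, RTT_ROSA26 and RTT_PTGS12KO, a ratio of -1.85. Ctsd stood at 641, 724 and 625 CPM (ratio -1.32), and Lgmn and Tpp1, a tripeptidyl peptidase, both at a ratio of -1.11. Naglu, which degrades heparan sulfate, lay at -1.08, Hexa at -1.0, Grn, which encodes progranulin, at -0.87 and Cd68 at -0.77. Ctsh, at -0.11, and the alpha-galactosidase gene Gla, at -0.06, differed least. No pump subunit was past 1.5-fold, Tcirg1 lying at -0.39. Without RTT_PTGS12KO, 16 of 35 genes were lower in both tumours left (7.92% of all genes). Ctsb, a cysteine cathepsin outside the 37, lay at -1.67. Markers moved with these values, since the macrophage markers summed to 13861 to 20157 CPM in TAM_Spp1 against 25969 to 51898 CPM in TAM_C1q, and 10 monocyte markers to 1222 to 1581 CPM against 276 to 503 CPM. Their part in the ratios was not tested.

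In TAM_cycling, the dividing macrophages, none of 35 genes was higher or lower than in TAM_C1q past 1.5-fold in all 3 tumours (background 7.86% and 0.588%), and the median ratio was -0.26 beside 0.05 for all genes. The mean ratio was below 0 for 32 of the 35, against 42.5% of all genes. Cd63 (-0.72), Ctsd (-0.66), Lgmn (-0.48) and Hexa (-0.42) lay lowest. Without RTT_ROSA26, 2 were lower (1.60% of all genes). The macrophage markers summed to 32388, 30124 and 15436 CPM in TAM_cycling of RTT, RTT_ROSA26 and RTT_PTGS12KO, below TAM_C1q of the same tumour each time, and the monocyte markers to 395, 283 and 1072 CPM against 278, 276 and 503 CPM. Against the same type, TAM_H2Ab1 could be compared in RTT and RTT_PTGS12KO only. There 1 gene was higher and 2 lower of 35 (background 5.09% and 3.59%). Ppt1, which strips palmitate from proteins, was higher, at 406 and 350 CPM against 217 and 207 CPM (ratio 0.83). Ctsd was lower, at 665 and 612 CPM against 1752 and 1290 CPM (ratio -1.24), as was Atp6v0a1 (-1.0). Psap, the precursor of the sphingolipid activator proteins, lay at 0.62 but did not pass 1.5-fold in both tumours. In RTT_PTGS12KO alone 2 genes were higher (6.09% of all genes), and in RTT alone 4 were lower (12.7%). The macrophage markers summed to 35255 and 19856 CPM in TAM_H2Ab1 of these tumours, against 51898 and 25969 CPM in TAM_C1q, and the monocyte markers to 987 and 1249 CPM against 278 and 503 CPM.

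TAM_C1q was also set against Monocyte_1, a comparison of a macrophage with a monocyte type that was chosen after the data had been seen. Of 35 genes, 13 were higher and 0 lower (background 7.57% and 6.37%), with a median log2 ratio of 0.44 beside 0.11 for all genes. Hydrolases supplied 10 of the 13, the pump 2 and the membrane proteins 1. That member was Cd63, at 229, 194 and 146 CPM in Monocyte_1 of RTT, RTT_ROSA26 and RTT_PTGS12KO against over 1000 CPM in TAM_C1q, a mean ratio of 2.92. A UMI of Cd63 was present in 95.6% to 98.8% of TAM_C1q cells, 40.7% to 42.9% of Monocyte_1 cells of the resistant tumours and 15.1% to 24.5% of NK cells. Ctsd (1.92), Tpp1 (1.67), Lgmn (1.66), Gusb, the beta-glucuronidase (1.29), and Hexa (1.19) followed. Atp6v0a1, lower in Ctsk_Macro, was higher here (1.58), and Tcirg1 hardly differed (-0.03). Ppt1 lay below 0 (-0.52). Of 23 other hydrolases, 7 were higher and 0 lower. Ctsa stood at 598, 602 and 503 CPM in TAM_C1q against 324, 233 and 282 CPM in Monocyte_1 (1.03), without overlap, and it was highest of all types in Ctsk_Macro, at 762, 617 and 667 CPM. The macrophage markers summed to 12113, 8597 and 7070 CPM in Monocyte_1. In the 54 Monocyte_1 cells of RTT_ROSA26 the low genes rest on few UMIs. TAM_C1q against Infl_Mono, also chosen after the data had been seen, gave 9 higher and 0 lower of 33 (11.0% and 8.81%). Its median log2 ratio was 0.46 beside 0.20 for all genes.

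Across the 16 sums of 5 macrophage types, pump subunits varied together most, with a median Pearson r of log2(CPM + 1) over 36 pairs of genes of 0.82, against 0.26 over 231 pairs of hydrolases and -0.18 over 15 pairs of membrane proteins. These sums share tumours and loads, and no p is given. Without the 3 Ctsk_Macro sums, an alternative added after the data had been seen, the medians over 13 sums were 0.65, 0.46 and 0.50, so the gap between the groups rested largely on Ctsk_Macro. By the highest r over all 16 sums, Ctsk_Macro included, Atp6v0b was most like Atp6v0c (0.98), Cd68 most like Ctsa (0.99), Lamp1 most like Scarb2 (0.96), and Arsb most like Atp6v1b2 (0.96). Over the same 16 sums Atp6v0a1 went against its complex, with a median r to the other pump subunits of -0.57, and was most like Lamp1 (0.87).

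Between tumours, the first question was how macrophages of therapy-naive and resistant tumours differed. The macrophages compared were 308 cells in NTT, 192 of them TAM_H2Ab1, and 6734 cells in RTT, 3412 of them TAM_C1q, the small type Macro not being counted among them. Of 36 genes, 2 were higher and 10 lower in NTT (background 9.76% and 8.92%), with a median log2 ratio of -0.34 beside 0.00 for all genes. Cd63 was lowest, at 515 CPM (493 to 537) against 1346 CPM (1339 to 1354), a ratio of -1.39. Ctsd followed, at 543 CPM against 1314 CPM (-1.27), then Arsb (-1.21), Atp6v0a1 (-1.16) and Tpp1 (-1.02). Glb1, Gusb, Lamp1, Hexa and Galns, a sulfatase for keratan sulfate, lay between -0.76 and -0.59. Ppt1, at 492 CPM against 213 CPM (1.21), and Psap, at 1264 CPM against 737 CPM (0.78), were the higher genes. Tcirg1 lay at 0.30. Cells of Ctsk_Macro, where Arsb is concentrated, numbered 5 of the 308 in NTT and 329 of the 6734 in RTT.

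Matched types of NTT and RTT were then compared, so that the share of each type did not enter. In TAM_cycling, 1 gene was higher and 10 lower of 35 (background 8.92% and 12.9%). Cd63 stood there at 246 CPM in NTT against 1115 CPM in RTT (-2.17), Tpp1 at 86.3 against 238 (-1.45) and Ctsd at 411 against 1115 (-1.44), while Ppt1 stood at 460 against 204 (1.17). In TAM_H2Ab1, 1 was higher and 5 lower of 35 (11.6% and 10.1%), among them Cd63, at 568 against 1417 CPM (-1.32). In Infl_Mono, 0 were higher and 9 lower of 33 (9.32% and 9.58%), Cd63 standing at 60.5 against 726 CPM (-3.56), Ctsd at 350 against 812 CPM (-1.21) and Lgmn at 550 against 1252 CPM (-1.19). The hydrolases took 0.569% of summed UMIs there in NTT and 0.737% in RTT. Their median share per cell was nearly the same, 0.529% in NTT and 0.528% in RTT, so the sums do not describe the typical cell. Monocyte_1, with 4977 cells in NTT and 384 in RTT, differed less, with 0 higher and 2 lower of 35 (7.65% and 2.89%) and a median of -0.08 beside 0.04 for all genes. Cd63 was lower there, at 68.8 against 229 CPM (-1.72), but Ctsd stood higher in NTT, at 500 against 399 CPM (0.32, short of 1.5-fold). Outside monocytes and macrophages, Neutro had 0 higher and 11 lower of 33 (12.0% and 13.6%) and cDC2, a dendritic cell type, 2 higher and 7 lower of 32 (11.6% and 14.1%). In Neutro the hydrolases took 0.466% of summed UMIs in NTT and 0.563% in RTT. The median share per cell went the other way, at 0.395% in NTT and 0.264% in RTT, so the sums do not describe the typical cell. Cd63 was lower in NTT in all 6 types that could be compared, and Ctsd lay below 0 in 5 of them, all but Monocyte_1.

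The macrophage markers moved with these values. Their sum was 12392 CPM in NTT and 32388 CPM in RTT in TAM_cycling, 21110 and 35255 CPM in TAM_H2Ab1, and 5016 and 27290 CPM in Infl_Mono. It was also higher in RTT than in NTT in the other types compared, with 5719 and 12113 CPM in Monocyte_1, 5187 and 21039 CPM in Neutro, and 1493 and 2848 CPM in cDC2. The sum of 10 monocyte markers was higher in NTT in all 6 types, with 3437 CPM in NTT and 395 CPM in RTT in TAM_cycling, 2313 and 987 CPM in TAM_H2Ab1, 13451 and 6867 CPM in Infl_Mono, 8044 and 3491 CPM in Monocyte_1, 5976 and 2569 CPM in Neutro, and 6019 and 1054 CPM in cDC2. Only 50.7% of Infl_Mono cells of RTT had a UMI of Cd63, against 22.7% in NTT, although the mean level differed far more. The part of either marker list in the lysosomal differences was not tested. In all monocytes, 6619 cells of NTT and 522 of RTT, 0 genes were higher and 3 lower of 34 (5.85% and 3.59%), namely Cd63 (66.9 against 359 CPM, -2.41), Lgmn (540 against 873 CPM, -0.69) and Man2b1, the alpha-mannosidase (158 against 250 CPM, -0.66). Ctsd and Lamp1 both lay at -0.12 there and Tcirg1 at 0.31.

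**Figure D4:**
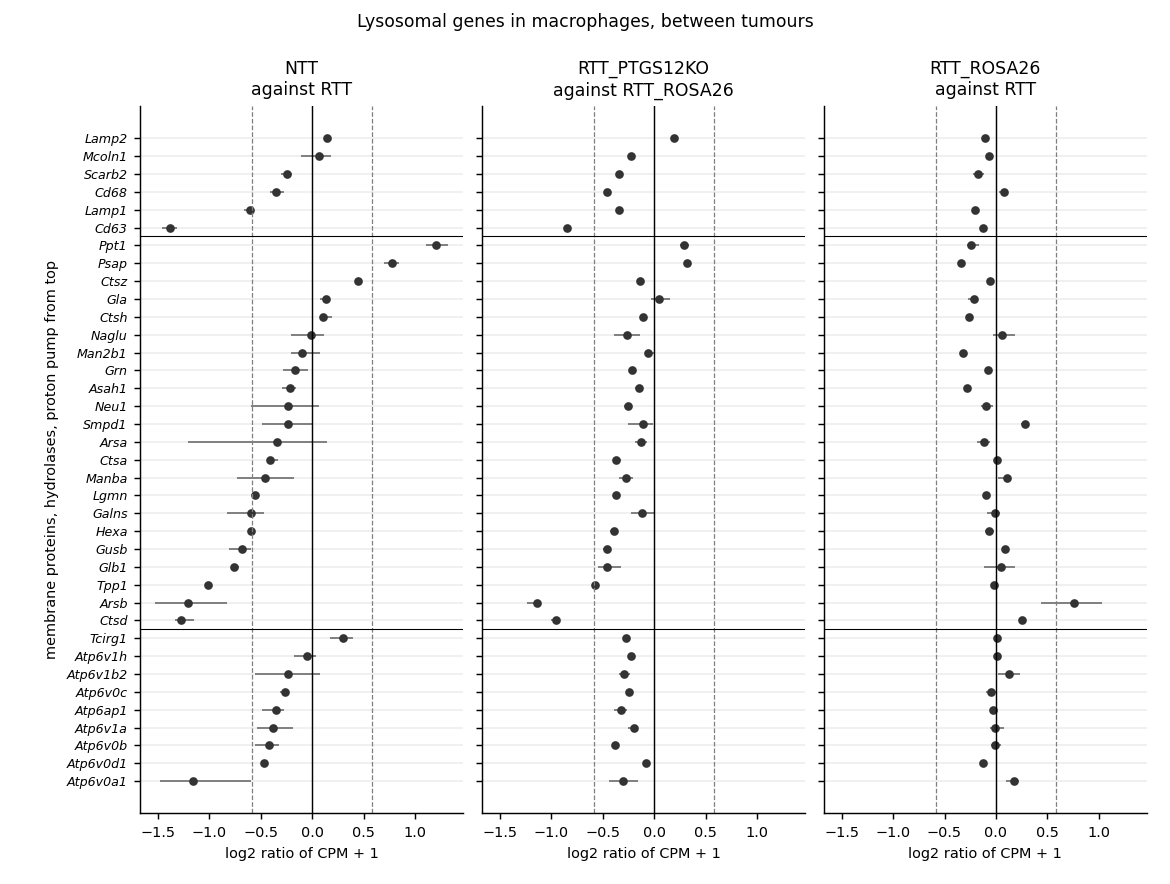
Log2 ratio of CPM + 1 of the 37 genes in macrophages for NTT against RTT, RTT_PTGS12KO against RTT_ROSA26 and RTT_ROSA26 against RTT, with bars for the range over 3 droplet loads and dashed lines at 1.5-fold. Cd63 and Ctsd lie left of the lower line in the first and second panels and between the lines in the third.

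The next question was what loss of Ptgs1 and Ptgs2 in the cancer cells went with. In macrophages, 5207 cells of RTT_PTGS12KO and 5993 of RTT_ROSA26, 0 genes were higher and 3 lower of 37 (background 4.26% and 3.53%). The other 34 did not pass 1.5-fold. The median ratio of the 37 was -0.26 beside -0.08 for all genes, and 33 of 37 ratios (65.7% of all genes) lay below 0. Arsb stood at 13.4 CPM against 30.9 CPM (-1.14), Ctsd at 810 CPM against 1572 CPM (-0.96) and Cd63 at 687 CPM against 1236 CPM (-0.85). Tpp1 lay at -0.57, short of 1.5-fold, Gusb at -0.46, Lamp1 at -0.35 and Tcirg1 at -0.28. Psap (0.32), Ppt1 (0.30) and Lamp2 (0.20) lay above 0. Ctsk_Macro made up 188 of the 5207 macrophages and 401 of the 5993, and Arsb within that type differed less (-0.59).

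In matched types the knockout difference varied. TAM_cycling had 0 higher and 7 lower of 36 (background 5.23% and 4.78%), led by Ctsd at 632 CPM against 1629 CPM (-1.36) and Cd63 at 502 CPM against 1133 CPM (-1.17). TAM_C1q had 0 higher and 2 lower of 36 (3.12% and 2.43%), the same pair of genes, Ctsd at 1290 against 2008 CPM (-0.64) and Cd63 at 1030 against 1561 CPM (-0.60). TAM_Spp1 had none of 34 past 1.5-fold in either direction (3.06% and 2.95%), with a median of -0.06 beside -0.09 for all genes. Ctsk_Macro had 1 higher, Ctsh (0.68), and 1 lower, Arsb, of 36 (8.76% and 5.60%). The type Macro, with 96 and 130 cells, had 1 higher and 16 lower of 37 (12.9% and 21.1%), Cd63 being lowest at 209 against 761 CPM (-1.86), then Tpp1 (-1.51) and Lgmn (-1.42). The macrophage markers again moved along, with 15436 CPM in RTT_PTGS12KO and 30124 CPM in RTT_ROSA26 in TAM_cycling, 25969 and 41177 CPM in TAM_C1q, and 10149 and 41561 CPM in Macro. They stood at 13861 and 16079 CPM in TAM_Spp1 and at 9147 and 8096 CPM in Ctsk_Macro. Monocyte markers were higher in RTT_PTGS12KO in TAM_cycling (1072 and 283 CPM), TAM_C1q (503 and 276 CPM), Macro (2789 and 1452 CPM) and Ctsk_Macro (216 and 107 CPM), and lower in TAM_Spp1 (1255 and 1581 CPM). Their part in the lysosomal values was not tested. In monocytes 0 genes were higher and 1 lower of 33 (7.20% and 7.40%), Cd63 at 141 against 245 CPM (-0.79), with a range over loads from -1.36 to 0.22 that crosses 0. Ctsd stood at 488 CPM in both monocyte sums, but these hold different types, 635 Infl_Mono and 3347 Monocyte_1 cells in RTT_PTGS12KO against 86 and 54 in RTT_ROSA26. Within Infl_Mono, 2 genes were higher and 3 lower of 31 (11.0% and 11.4%), and Ctsd was at 328 against 551 CPM (-0.75, loads from -1.32 to 0.30). Within Monocyte_1, 1 was higher and 2 lower of 35 (9.74% and 11.3%), and Ctsd was at 511 against 410 CPM (0.32, loads from -0.01 to 0.65). These counts lay near or below the background, and the ranges over loads of Ctsd cross 0 in both. Neutro had 0 higher and 13 lower of 33 (9.10% and 19.1%) and cDC2 1 higher and 5 lower of 34 (8.53% and 10.2%). The macrophage markers summed to 8019 CPM in RTT_PTGS12KO and 22398 CPM in RTT_ROSA26 in Neutro, to 1898 and 2212 CPM in cDC2, to 3775 and 11955 CPM in Infl_Mono and to 7070 and 8597 CPM in Monocyte_1. The monocyte markers summed to 4211 and 1460 CPM in Neutro, 2956 and 923 CPM in cDC2, 15989 and 10520 CPM in Infl_Mono, and 5621 and 5840 CPM in Monocyte_1.

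**Figure D5:**
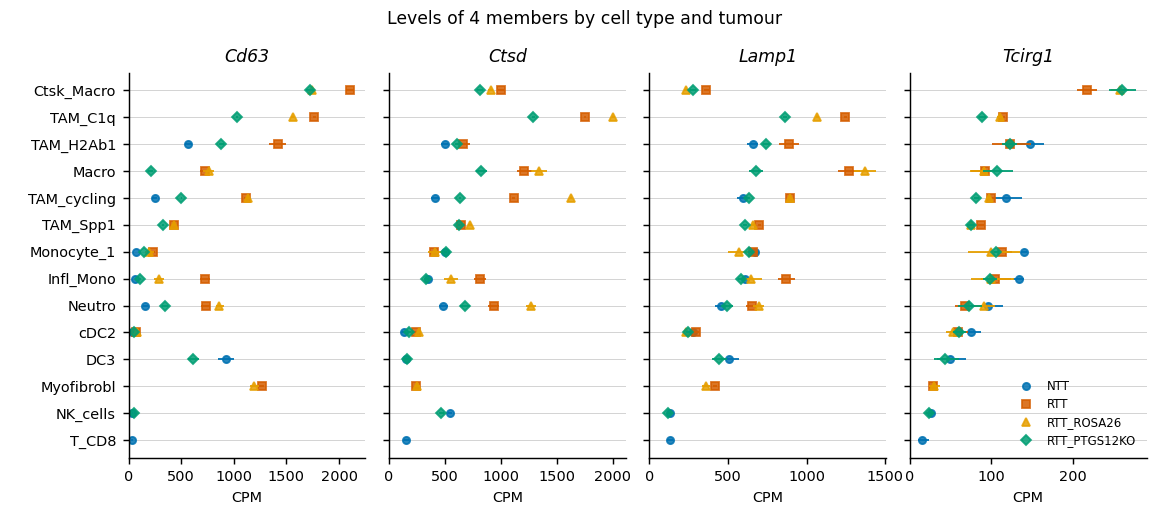
CPM of Cd63, Ctsd, Lamp1 and Tcirg1 (x axes from 0) in each cell type and tumour with at least 50 cells, with bars for 95% exact Poisson intervals. Within TAM_C1q, TAM_cycling and Macro the RTT_PTGS12KO points for Cd63 and Ctsd lie below those of RTT and RTT_ROSA26, and Tcirg1 stands apart only in Ctsk_Macro.

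RTT_ROSA26 against RTT, resistant tumours that both keep the targeted genes, shows how far such tumours differed. It shares a library with each of the contrasts above. Of 36 genes in macrophages, 1 was higher, Arsb (0.76), and 0 lower (background 3.24% and 2.61%), Ctsd lying at 0.26 and Psap at -0.34. None was past 1.5-fold in TAM_C1q (0 of 35, 0.990% and 2.36%), TAM_Spp1 (0 of 34, 1.64% and 2.12%) or TAM_cycling (0 of 36, 0.827% and 1.90%), where Ctsd was the furthest at 0.55. In Ctsk_Macro, 0 were higher and 6 lower of 37 (2.23% and 6.18%), namely Lgmn (-0.91), Scarb2 (-0.88), Grn (-0.79), Ctsh (-0.68), Lamp1 (-0.66) and Atp6v0a1 (-0.65). All but Grn are among the genes that were also lower in Ctsk_Macro than in TAM_C1q, and the macrophage markers of Ctsk_Macro stood at 24017 CPM in RTT and 8096 CPM in RTT_ROSA26. In monocytes, where RTT_ROSA26 has only 144 cells, 0 were higher and 4 lower of 33 (6.97% and 7.41%), Naglu (-1.0), Grn (-0.66), Man2b1 (-0.64) and Gusb (-0.64). Within Infl_Mono 0 were higher and 8 lower of 32 (9.70% and 15.2%), among them Cd63 at 287 against 726 CPM (-1.34), and within Monocyte_1 1 was higher and 2 lower of 35 (13.6% and 10.6%). The rest were Macro with 0 higher and 2 lower of 37 (12.4% and 7.24%), Neutro with 1 and 0 of 33 (17.9% and 8.47%), cDC2 with 1 and 0 of 34 (4.28% and 8.21%) and Myofibrobl with 0 and 3 of 30 (6.37% and 8.16%). The macrophage markers of Infl_Mono stood at 11955 CPM in RTT_ROSA26 and 27290 CPM in RTT, and those of Monocyte_1 at 8597 and 12113 CPM, while the monocyte markers stood at 10520 and 6867 CPM and at 5840 and 3491 CPM. The monocyte values of RTT_ROSA26 rest on few cells.

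Lysosome genes outside the 37 gave further reference points in macrophages. Slc11a1, a divalent metal transporter of phagosomes, was highest both for NTT against RTT, at 153 CPM against 46.7 CPM (1.69), and for RTT_PTGS12KO against RTT_ROSA26, at 101 CPM against 49.7 CPM (1.01), and lay at 0.09 for RTT_ROSA26 against RTT. Ctsl, a cysteine cathepsin, stood at 682 CPM against 2360 CPM (-1.79) in the first contrast and at 1133 CPM against 1728 CPM (-0.61) in the second. Tfec, a relative of Tfeb, lay at -1.03 in the first, -0.51 in the second and -0.77 in RTT_ROSA26 against RTT, and Mitf lay at 0.28, -0.07 and 0.30. Of 50 such genes with at least 10 CPM, 4 were higher and 8 lower in the first contrast, where 9.76% and 8.92% of all genes were. In the second, 1 was higher and 8 lower, beside 4.26% and 3.53%. The counts of higher genes thus lay at or below the background and those of lower genes above it.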

How the data were processed

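CD45+ cells of digested tumours were labelled with multiplexing oligos, 1 per sample, pooled, and run in 3 droplet loads with a 3′ kit. The authors deposited a table of raw UMI counts for 32285 genes in 33368 cells, with each cell's tumour and type. Submitters' notes and methods name Cell Ranger, mm10 and Seurat 4.3.0. Every cell had over 1000 genes and under 15% mitochondrial UMIs, as the study's filter asks. No doublet caller was run, and leaving out the cells with most UMIs was an alternative. The 2 deposited columns of totals per cell were not used.

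UMIs were summed per type and tumour with at least 50 cells, and scaled to CPM. Ratios, on the log2 scale with 1 CPM added, used genes with a mean of at least 10 CPM. Thinned shares took cells of at least 3000 UMIs. Macrophages were TAM_C1q, TAM_Spp1, TAM_cycling, TAM_H2Ab1 and Ctsk_Macro, and monocytes were Monocyte_1, Infl_Mono and Monocyte_3. The naming rule took Lamp1, Ctsd and Tcirg1, and per comparison the 4 highest and 4 lowest ratios at 50 CPM or more (of the 55 other lysosome genes, 2 and 2, with Tfeb, Tfe3, Mitf and Tfec). Further genes were named after their values were seen. The 37 genes, lists and comparisons were chosen with earlier results of these data known. Steps were tested on simulated data. Python 3.11.15, numpy 2.4.6, scipy 1.17.1, pandas 2.3.3, matplotlib 3.10.9, R 4.3.3 and edgeR 4.0.16 (TMM factors only) were used. Gene coordinates are from GENCODE on GRCm38.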

Additional observations from a re-analysis of the deposited data

How the results depend on the processing

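No paired analysis was possible because there is a single sample in every group, so between tumours none could be paired or left out. Comparisons of types were made within tumours, as ratios and without a test because the types are clusters of these same cells, and leaving out each tumour in turn was added after seeing the data. Among counts of genes, 459 alternatives stayed within 1.5 times the value reported and 115 moved. Among single genes named, 1987 stayed and 287 moved. Among medians, 188 stayed, 56 moved and 5 reversed. The cause was not tested.

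The reversed medians lay near 0: RTT_PTGS12KO against RTT_ROSA26 in TAM_Spp1 at 0.033 with TMM factors and 0.001 with the mean of single-cell CPM, RTT_ROSA26 against RTT in Macro at 0.018 with the latter, and Infl_Mono against Monocyte_1 at 0.015 with TMM factors and 0.003 without RTT_PTGS12KO (range without each tumour -0.046 to 0.003).

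Percentages in brackets are the share of all genes past the limit at the same setting. Without each tumour in turn, Ctsk_Macro against TAM_C1q gave 10 higher each time (12.6% to 13.4%) and 7 to 9 lower (12.2% to 14.3%), TAM_C1q against Monocyte_1 13 to 15 higher (8.54% to 11.2%), TAM_Spp1 against TAM_C1q 8 to 16 lower (5.37% to 7.92%), TAM_cycling against TAM_C1q 0 to 2 lower (0.606% to 1.60%), and TAM_H2Ab1 against TAM_C1q, then left with 1 tumour, 1 to 2 higher (6.09% to 9.89%) and 2 to 4 lower (4.97% to 12.7%). With a limit of 2-fold in place of 1.5-fold, NTT against RTT gave 1 higher (5.10%) and 5 lower (3.27%) in macrophages and 1 lower (1.31%) in monocytes, RTT_PTGS12KO against RTT_ROSA26 gave 1 lower (0.889%) in macrophages and 0 lower (1.92%) in monocytes, and RTT_ROSA26 against RTT gave 0 higher (0.524%) in macrophages and 1 lower (1.58%) in monocytes. With the same limit, Ctsk_Macro against TAM_C1q gave 5 higher (5.72%), TAM_Spp1 against TAM_C1q 2 lower (1.68%), and TAM_H2Ab1 against TAM_C1q 0 higher (2.72%) and 1 lower (1.01%). In monocytes, RTT_PTGS12KO against RTT_ROSA26 gave 1 higher (8.79%) with TMM factors, 1 higher (8.46%) and 0 lower (9.61%) with the mean of single-cell CPM, and 2 higher (8.35%) without the 5% of cells with most UMIs (31670 cells left). RTT_ROSA26 against RTT in monocytes gave 1 higher (9.13%) and 7 lower (8.39%) with the mean of single-cell CPM, 1 higher (8.27%) without the 5% of cells with most UMIs and 1 higher (12.6%) with no minimum CPM, and in macrophages 0 higher (1.29%) with CPM + 10. TAM_H2Ab1 against TAM_C1q gave 2 higher (5.19%) without the 5% of cells with most UMIs. Keeping cells with more than 1500 genes and less than 10% mitochondrial UMIs left 30876 cells, and a minimum of 100 cells per type and tumour left fewer types to compare. Macro in RTT and RTT_PTGS12KO, TAM_H2Ab1 in RTT, TAM_cycling in NTT and each monocyte type in RTT_ROSA26 held under 100 cells.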
